A study of Mus musculus with 13 samples.

Results

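Sugar metabolism was followed through 39 genes of glycolysis, glycogen and lactate transport, chosen by symbol from the 39171 genes of one expression table. The genes encode sugar transporters, the enzymes from hexokinase to lactate dehydrogenase, the gate of pyruvate into mitochondria, monocarboxylate transporters and the enzymes of glycogen. The study sorted 2 cell populations from the spinal cord of C57BL/6 mice, astrocytes by GFP under the Aldh1l1 promoter and microglia by surface CD11b. It compared mice lacking the cytokine IL-33 (IL-33 KO, the line of Pichery and colleagues) with littermate controls (IL-33 WT). There were 3 libraries of WT microglia, 3 of KO microglia, 3 of WT astrocytes and 4 of KO astrocytes. All microglia came from mice at postnatal day 12, as did all astrocytes except WT library 3 and KO library 2, which came from day 9. The labels give no sex and do not say whether a library is 1 mouse or a pool. Whether any astrocyte and microglia libraries share an animal is not given either. CD11b is carried by many myeloid cells, so the microglial gate can admit other macrophages and granulocytes.

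In glycolysis, glucose is taken up by transporters of the Slc2a family, trapped by a hexokinase and split and oxidised to pyruvate. Pyruvate is either reduced to lactate, which leaves or enters cells through Slc16a transporters, or is passed to pyruvate dehydrogenase, which the Pdk kinases switch off. In the central nervous system glycogen is stored mostly in astrocytes, and lactate made there can be handed to neurons. Many steps are catalysed by isozymes, related enzymes from separate genes that differ in regulation and in the tissues that use them.

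Levels are in FPKM, fragments scaled for the length of the transcript and the number of mapped fragments of the library, so that genes can be set side by side. Differences are estimates from a linear model (limma) in log2(FPKM + 1), a scale that understates changes of genes near 0. They are given with a standard error (SE). Genotype and cell type differences that involve astrocytes are adjusted for age, so they can depart from the plain gap between group means. A gene was called when its limma p-value, adjusted by the Benjamini-Hochberg method over all genes tested, was under 0.05. Il33 itself read between 96.3 and 113 FPKM in the 3 WT astrocyte libraries and between 0.424 and 2.28 FPKM in the 4 KO ones, as labelled. In the 6 microglia libraries it read from 0 to 1.26 FPKM, so it checks no label there. The summed level of 10 microglial markers was 7906 to 8635 FPKM in microglia and 8.79 to 57.2 FPKM in astrocytes. That of 10 astrocyte markers was 7145 to 14227 FPKM in astrocytes and 85.0 to 126 FPKM in microglia. The sequencing depth of the libraries is unknown. The lowest correlation between libraries of one group was 0.760, among WT microglia.

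Most of the pathway had more RNA in astrocytes. In RNA of whole sorts, fewer cells of a type and less RNA per cell cannot be told apart. Of the 39 genes, all passed the filter of a mean of at least 1 FPKM over the 13 libraries, 26 were lower in WT microglia than in WT astrocytes, 8 were higher and 5 were not called. Over all 16258 genes tested the call rates were 24.5% lower, 29.1% higher and 53.6% in all. The median difference of the 39 genes was -1.96 on the log2 scale, against 0.21 for all genes. KO mice gave the same numbers, 26 lower and 8 higher, where 25.1% and 31.9% of all genes were called in those directions and 56.9% in all. The median was then -1.79 against 0.24. Other scalings of the table moved the median of all genes to 0.39 (median-ratio factors) or -0.06 (quantile normalisation) in WT mice. Quantile normalisation also changed the split of all calls in WT mice from 4737 higher and 3980 lower to 3764 higher and 4930 lower. With a pseudocount of 0.1 in place of 1, the WT differences of Hk3, Slc16a3 and Pcx, which are near 0 in 1 population, were 7.93, 4.73 and -4.51. Under both scalings every gene of the 39 that was called kept its direction, and Slc2a3, not called, changed its sign under quantile normalisation.

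**Figure D1:**
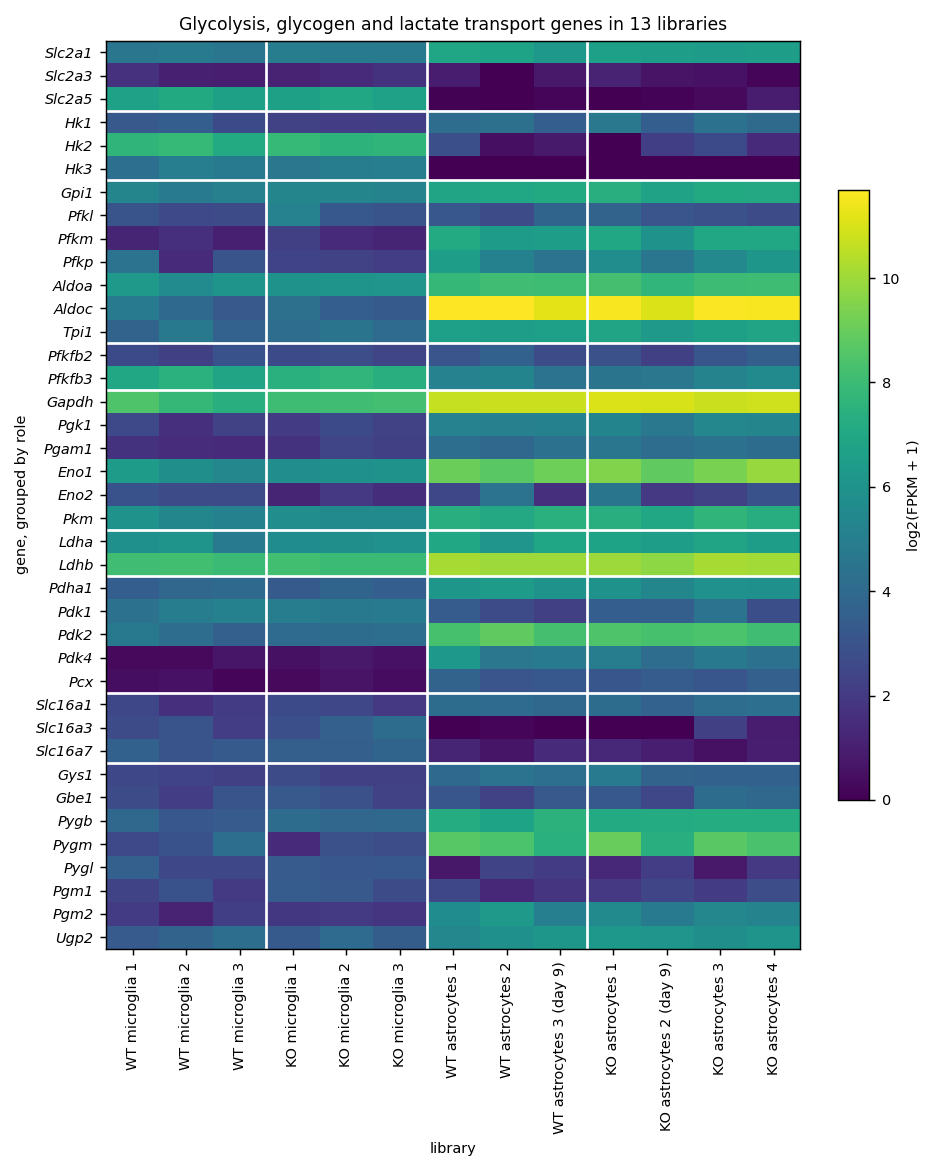
Level of each of the 39 genes (rows, grouped by role from sugar transporters to glycogen enzymes) in each of the 13 libraries (columns, white lines between groups), as log2(FPKM + 1) on the colour scale. Aldoc, Gapdh, Ldhb and Eno1 are the brightest rows in astrocytes, while Slc2a5, Hk2 and Hk3 are lighter in the 6 microglia libraries than in the 7 astrocyte libraries.

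Transporter RNA differed by gene, with Slc2a5 on the microglial and Slc2a1 on the astrocyte side. Slc2a5, a fructose transporter known as a microglial marker, read 101, 136 and 98.4 FPKM in WT microglia and 98.7, 129.8 and 102 FPKM in KO microglia. In astrocytes it read 0.0550, 0 and 0.165 FPKM (WT) and 0, 0.0917, 0.248 and 0.868 FPKM (KO). No astrocyte library reached 1% of the lowest microglia library. The difference was 6.68 ± 0.27 (SE) with an adjusted p = 1.76e-08 in WT mice and 6.43 ± 0.25 (SE) with an adjusted p = 9.97e-09 in KO mice. Slc2a1, the glucose transporter of glia and of the blood-brain barrier, went the other way, with 121, 108 and 74.3 FPKM in WT astrocytes and 95.7, 91.3, 85.7 and 90.1 FPKM in KO astrocytes. It read 22.8, 26.2 and 22.8 FPKM in WT microglia and 30.1, 27.8 and 26.9 FPKM in KO microglia, so every astrocyte library stood above every microglia library. Mean FPKM was 4.23-fold higher in WT astrocytes, and the difference was -2.10 ± 0.18 (SE) with an adjusted p = 3.32e-06. Slc2a3, the transporter typical of neurons, was low throughout, at most 2.26 FPKM in microglia and 1.17 FPKM in astrocytes, and was not called (adjusted p = 0.186 in WT and 0.0862 in KO mice). Without KO astrocyte library 1 it was called higher in KO microglia (1.03, adjusted p = 0.0495). Endothelial and mural markers, cells that also carry Slc2a1, summed to 34.3 to 108 FPKM in astrocytes and 19.2 to 32.4 FPKM in microglia, and their part in the Slc2a1 difference was not tested.

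Hexokinase, which commits glucose to the cell, was carried by Hk2 and Hk3 RNA in microglia and mostly by Hk1 RNA in astrocytes. Hk2, the inducible form that binds mitochondria, read 198, 227 and 142 FPKM in WT microglia and 228, 188 and 199 FPKM in KO microglia. Its astrocyte values were 6.17, 0.395 and 0.803 FPKM (WT) and 0.00697, 3.52, 5.09 and 1.66 FPKM (KO). The astrocyte libraries thus spread widely near 0, and all lay far under the microglia. Mean FPKM was 76.9-fold higher in WT microglia, and the difference was 6.17 ± 0.74 (SE) with an adjusted p = 4.61e-05. That fold rests on WT astrocyte library 1, without which it was 315-fold. Hk3, a form found mainly in myeloid cells, read 18.4, 30.7 and 26.4 FPKM in WT microglia and 23.8, 29.2 and 31.4 FPKM in KO microglia. It was listed at 0 in 6 of the 7 astrocyte libraries and at 0.0196 FPKM in the other. The difference was 4.68 ± 0.24 (SE) with an adjusted p = 8.02e-08 in WT mice. Neutrophil markers, which mark another Hk3-rich cell, summed to 55.1 to 261 FPKM in microglia. S100a8 was the most abundant of these 8 markers, with means of 105 FPKM (WT) and 36.5 FPKM (KO). Only Ly6g was at 0 in all 6 libraries. Border macrophage markers summed to 198 to 622 FPKM in microglia and 0.941 to 5.95 FPKM in astrocytes. Their part in the Hk3 level was not tested. Hk1, the housekeeping form and the main hexokinase of brain, was higher in astrocytes, with 16.9, 18.9 and 10.2 FPKM (WT) and 24.5, 10.4, 20.2 and 15.5 FPKM (KO). Microglia had 8.59, 10.1 and 5.15 FPKM in WT and 3.78, 3.34 and 3.56 FPKM in KO mice. The WT groups came close, since the highest microglia library, at 10.1 FPKM, lay just under the lowest astrocyte library, at 10.2 FPKM. The difference was -1.13 ± 0.26 (SE) with an adjusted p = 0.00365 in WT mice and -2.18 ± 0.24 (SE) with an adjusted p = 2.07e-05 in KO mice. With only the WT libraries in the fit the WT call was lost (-1.11, adjusted p = 0.0579). Summed over the 3 genes, hexokinase RNA was 222 ± 47.0 FPKM (SD, n = 3) in WT microglia and 17.8 ± 6.16 FPKM (SD, n = 3) in WT astrocytes.

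From the second step on the balance turned. Of the 7 genes of upper glycolysis, which carry glucose 6-phosphate to the triose phosphates, 6 were lower in microglia in each genotype and none was higher. Among all genes 24.5% were lower and 29.1% higher in WT microglia, and 25.1% and 31.9% in KO microglia. Aldoc, the aldolase typical of astrocytes, was the most abundant of the 39 genes, at 3312, 3298 and 2405 FPKM in WT astrocytes and 3098, 2194, 3129 and 3036 FPKM in KO astrocytes. In microglia it read 26.5, 14.7 and 8.55 FPKM (WT) and 18.9, 10.1 and 8.94 FPKM (KO). No library of one population came near the other, with means 181-fold apart in WT and 226-fold apart in KO mice. The difference was -7.69 ± 0.37 (SE) with an adjusted p = 5.73e-08 in WT mice. Aldoa, the widespread aldolase, read 222, 271 and 265 FPKM (WT) and 301, 208, 258 and 265 FPKM (KO) in astrocytes. Its microglial values were 77.7, 48.9 and 65.2 FPKM (WT) and 60.4, 66.1 and 67.8 FPKM (KO), all below the astrocytes, a difference of -2.04 ± 0.21 (SE) with an adjusted p = 1.40e-05 in WT mice.

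Phosphofructokinase, the main control point of glycolysis, is built from Pfkl, Pfkm and Pfkp subunits. Pfkm, the muscle-type subunit, read 141, 83.8 and 92.1 FPKM in WT astrocytes and 127, 60.9, 124 and 127 FPKM in KO astrocytes, against 1.32, 2.06 and 1.06 FPKM and 3.57, 1.72 and 1.32 FPKM in WT and KO microglia. The groups did not overlap. In WT mice the difference was -5.63 ± 0.33 (SE) with an adjusted p = 1.99e-07, and mean FPKM was 71.2-fold higher in astrocytes. Pfkp, the platelet-type subunit, read 92.8, 34.5 and 20.9 FPKM in WT astrocytes and 52.0, 22.8, 44.2 and 71.0 FPKM in KO astrocytes. It read 4.05, 3.94 and 3.36 FPKM in KO microglia but 20.7, 1.72 and 7.33 FPKM in WT microglia, where library 1 nearly met the lowest astrocyte library at 20.9 FPKM. The difference was -2.84 ± 0.66 (SE) with an adjusted p = 0.00390 in WT mice and -3.56 ± 0.60 (SE) with an adjusted p = 0.000500 in KO mice. With only the WT libraries in the fit the WT call was lost (-2.87, adjusted p = 0.0721). That WT microglia library also had the highest sum of 9 neuron markers among microglia, 58.3 FPKM against 5.29 to 13.4 FPKM, and the part of neuronal RNA was not tested. Pfkl, the liver-type subunit, was not called (adjusted p = 0.660 in WT mice). It read 7.27, 4.99 and 5.34 FPKM and 35.3, 8.30 and 7.23 FPKM in WT and KO microglia and 5.38 to 12.6 FPKM in astrocytes. KO microglia library 1 stood far above all other libraries, and the remaining microglia lay near the astrocytes. Gpi1, which turns glucose 6-phosphate into fructose 6-phosphate, read 112, 126 and 138 FPKM (WT) and 159, 106, 138 and 130.5 FPKM (KO) in astrocytes. Every microglia library was lower, at 38.5, 25.9 and 33.2 FPKM (WT) and 39.2, 38.7 and 36.6 FPKM (KO), a WT difference of -1.96 ± 0.21 (SE) with an adjusted p = 1.63e-05. Tpi1 interconverts the triose phosphates. Its levels were 97.6, 93.2 and 97.2 FPKM (WT) and 113, 77.1, 99.4 and 113 FPKM (KO) in astrocytes, and 12.3, 25.7 and 11.6 FPKM (WT) and 16.9, 21.9 and 16.1 FPKM (KO) in microglia. These did not overlap, with a WT difference of -2.64 ± 0.29 (SE) with an adjusted p = 2.52e-05.

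The enzymes that make and break fructose 2,6-bisphosphate, the strongest activator of phosphofructokinase, were divided. Pfkfb3, the form with the highest kinase activity, read 122, 177 and 112 FPKM in WT microglia and 173, 209 and 162 FPKM in KO microglia. Astrocytes had 35.5, 37.3 and 21.2 FPKM (WT) and 21.5, 23.9, 37.1 and 46.5 FPKM (KO), below every microglia library. The difference was 1.91 ± 0.29 (SE) with an adjusted p = 0.000261 in WT mice and 2.36 ± 0.27 (SE) with an adjusted p = 2.63e-05 in KO mice. Pfkfb2, the heart-type form, read 7.35, 11.3 and 5.35 FPKM in WT astrocytes and 5.16, 3.58 and 6.59 FPKM in WT microglia, groups that overlapped. It was called lower in microglia in WT mice, with a difference of -0.81 ± 0.28 (SE) with an adjusted p = 0.0303, and not in KO mice (-0.54 ± 0.26 (SE), adjusted p = 0.0978). The WT call was lost on leaving out any of 4 libraries, with the adjusted p between 0.0531 and 0.122, as it was with median-ratio scaling (-0.63, adjusted p = 0.0826) and without the age covariate (-0.54, adjusted p = 0.217).

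The pay-off phase of the pathway, in which ATP is made, was mostly higher in astrocytes. Of the 6 genes of lower glycolysis, 5 were lower in WT microglia and all 6 were lower in KO microglia. The shares of all genes lower were 24.5% in WT and 25.1% in KO microglia. Gapdh, which oxidises glyceraldehyde 3-phosphate, read 1633, 1727 and 1746 FPKM in WT astrocytes, 2131, 1999, 1744 and 1834 FPKM in KO astrocytes, 358, 217 and 168 FPKM in WT microglia and 267, 271 and 294 FPKM in KO microglia. The lowest astrocyte library held several times the RNA of the highest microglia library, a difference of -2.83 ± 0.25 (SE) with an adjusted p = 4.47e-06 in WT mice. Eno1, the common enolase, read 531, 417 and 554 FPKM in WT astrocytes and 705, 457, 653 and 953 FPKM in KO astrocytes. In microglia it read 85.2, 55.5 and 41.5 FPKM (WT) and 52.7, 58.1 and 62.0 FPKM (KO), a difference of -3.17 ± 0.31 (SE) with an adjusted p = 9.07e-06 in WT mice. Pgk1, the first ATP-making kinase of the pathway, read 35.3, 33.5 and 34.5 FPKM (WT) and 37.7, 24.7, 41.5 and 39.4 FPKM (KO) in astrocytes. Microglia stayed well below, at 4.90, 1.99 and 3.83 FPKM (WT) and 3.14, 5.18 and 3.99 FPKM (KO), a WT difference of -3.12 ± 0.29 (SE) with an adjusted p = 6.06e-06. Pgam1 is the phosphoglycerate mutase. It read 17.9, 14.2 and 19.96 FPKM (WT) and 22.8, 17.2, 19.5 and 16.6 FPKM (KO) in astrocytes, and 2.24, 1.76 and 1.69 FPKM (WT) and 2.33, 4.43 and 3.58 FPKM (KO) in microglia. No libraries overlapped, and the WT difference was -2.64 ± 0.25 (SE) with an adjusted p = 7.17e-06. Pkm, the pyruvate kinase, read 162, 133 and 172 FPKM (WT) and 159.8, 123, 198 and 157 FPKM (KO) in astrocytes. All microglia were lower, at 62.8, 40.9 and 34.0 FPKM (WT) and 52.8, 46.1 and 47.9 FPKM (KO), a WT difference of -1.83 ± 0.26 (SE) with an adjusted p = 0.000138. A second row with the symbol Pgk1, a processed pseudogene, was at 0 in all 13 libraries and was left out.

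Eno2, the enolase of neurons, was the exception. It read 4.77, 21.0 and 1.97 FPKM in WT astrocytes and 22.2, 2.89, 3.86 and 6.82 FPKM in KO astrocytes, with WT library 2 and KO library 1 far above the rest. Microglia had 6.72, 5.44 and 5.43 FPKM (WT) and 1.30, 2.84 and 1.86 FPKM (KO). It was not called in WT mice (-0.61 ± 0.62 (SE), adjusted p = 0.426) and was lower in microglia in KO mice (-1.78 ± 0.57 (SE) with an adjusted p = 0.0208). Without KO astrocyte library 1 the KO call was lost (-1.28, adjusted p = 0.0620), as it was without KO microglia library 1 (-1.60, adjusted p = 0.0697) or 3 (-1.76, adjusted p = 0.0536), and without the age covariate (-1.38, adjusted p = 0.1005). Summed neuron markers were 371 FPKM in KO astrocyte library 1 and 35.6 to 156 FPKM in the other 6 astrocyte libraries, with 108 FPKM in WT library 2, and the part of neuronal RNA in Eno2 was not tested.

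**Figure D2:**
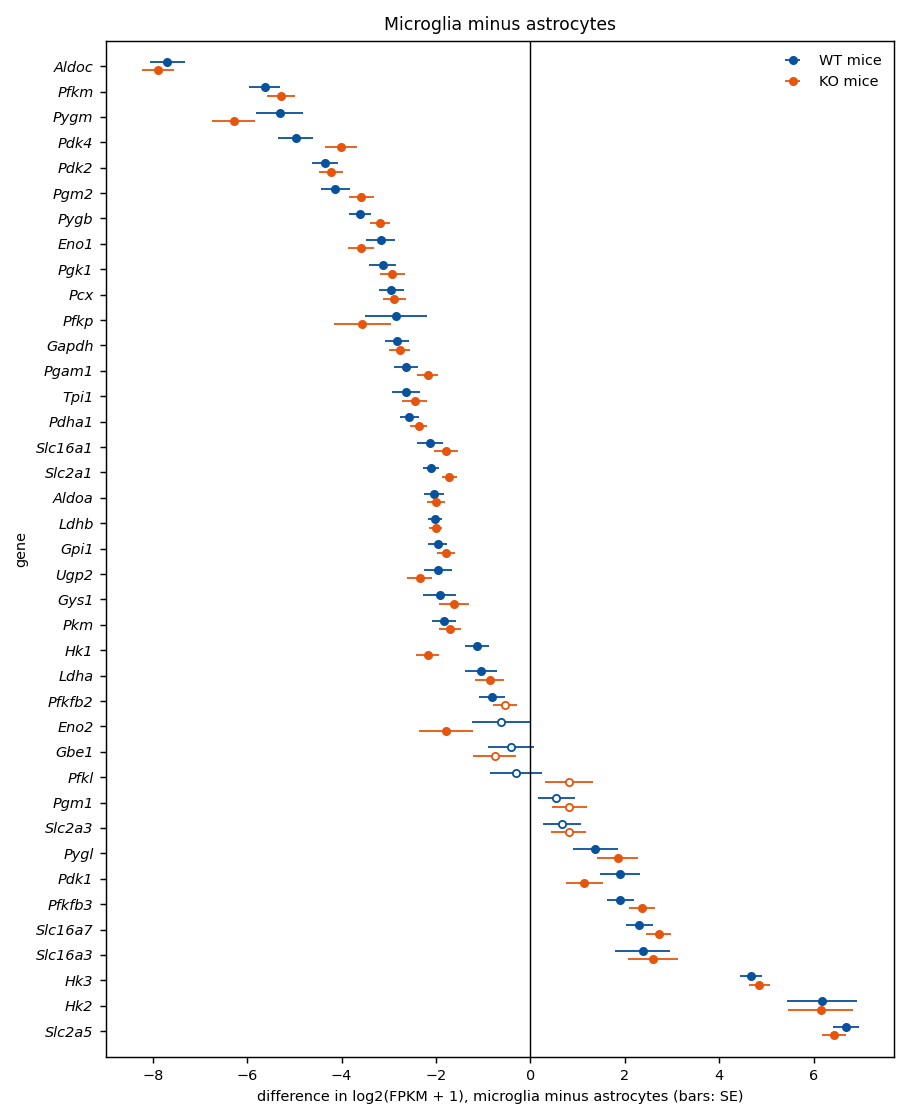
Difference between microglia and astrocytes for each of the 39 genes (vertical axis, ordered by the WT value) in log2(FPKM + 1), positive where microglia were higher, in WT mice (blue) and KO mice (orange). Bars are SE and filled points were called at an adjusted p under 0.05; in WT mice Aldoc, at -7.69, and Slc2a5, at 6.68, are the ends of the range.

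Both lactate dehydrogenase genes were lower in microglia, as were 24.5% (WT) and 25.1% (KO) of all genes. Ldhb, the form that favours lactate use, read 1129, 996 and 994 FPKM in WT astrocytes and 1003, 839, 1141 and 1064 FPKM in KO astrocytes. It read 273, 288 and 249.7 FPKM in WT microglia and 279.8, 248 and 250.2 FPKM in KO microglia. The populations stood apart with little spread within each, a difference of -2.02 ± 0.14 (SE) with an adjusted p = 9.02e-07 in WT mice. Ldha, the form that favours lactate production, read 128, 67.3 and 116 FPKM in WT astrocytes and 108, 91.6, 114 and 93.4 FPKM in KO astrocytes, against 56.8, 65.6 and 27.9 FPKM and 50.4, 55.0 and 59.2 FPKM in WT and KO microglia. The gap was narrow, 67.3 FPKM in the lowest astrocyte library and 65.6 FPKM in the highest microglia library. The difference was -1.05 ± 0.34 (SE) with an adjusted p = 0.0238 in WT mice and -0.86 ± 0.31 (SE) with an adjusted p = 0.0362 in KO mice. The WT call was lost without WT microglia library 3 (-0.68, adjusted p = 0.0647), WT astrocyte library 1 (-0.80, adjusted p = 0.122) or WT astrocyte library 3 (-0.96, adjusted p = 0.0546). The KO call was lost on leaving out any KO library but astrocyte library 2, with the adjusted p between 0.0578 and 0.0956. With median-ratio scaling both were lost (adjusted p = 0.0572 in WT and 0.0611 in KO mice), and with no filter the KO call was lost (adjusted p = 0.0588).

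Of the 5 genes that decide the fate of pyruvate, 4 were lower and 1 was higher in microglia in each genotype. Over all genes the shares were 24.5% lower and 29.1% higher in WT mice, and 25.1% and 31.9% in KO mice. Pdha1, the catalytic subunit of pyruvate dehydrogenase, read 10.4, 13.6 and 14.8 FPKM (WT) and 8.91, 12.8 and 10.4 FPKM (KO) in microglia. Astrocytes, at 40.6 to 86.1 FPKM, were all higher, a WT difference of -2.57 ± 0.20 (SE) with an adjusted p = 1.53e-06. Pcx, pyruvate carboxylase, refills the citric acid cycle and is regarded as a glial enzyme in brain. It read 12.2, 7.47 and 8.25 FPKM (WT) and 7.71, 9.63, 7.65 and 10.99 FPKM (KO) in astrocytes. Microglia were all under 1 FPKM, at 0.331, 0.479 and 0.166 (WT) and 0.225, 0.547 and 0.298 (KO), a WT difference of -2.94 ± 0.27 (SE) with an adjusted p = 5.48e-06.

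The Pdk kinases, which switch pyruvate dehydrogenase off, were divided between the populations. Pdk2, the widespread form, read 316, 455 and 304 FPKM in WT astrocytes and 354, 311, 334 and 279 FPKM in KO astrocytes. It read 25.1, 17.2 and 11.2 FPKM in WT microglia and 15.9, 16.3 and 17.8 FPKM in KO microglia, over 10 times less in every library, with a difference of -4.36 ± 0.28 (SE) with an adjusted p = 3.72e-07 in WT mice. Pdk4, the form induced by fasting and glucocorticoids, read 73.6, 23.5 and 28.5 FPKM in WT astrocytes and 28.7, 16.9, 25.3 and 19.3 FPKM in KO astrocytes. All 6 microglia libraries were under 1 FPKM, at 0.222, 0.246 and 0.636 (WT) and 0.457, 0.766 and 0.472 (KO), a WT difference of -4.97 ± 0.37 (SE) with an adjusted p = 1.38e-06. Pdk1, a target of hypoxia-inducible factor, was higher in microglia, at 19.3, 28.9 and 34.2 FPKM (WT) and 29.3, 25.9 and 27.0 FPKM (KO). Astrocytes read 9.41, 5.38 and 3.62 FPKM (WT) and 10.2, 10.8, 21.0 and 6.02 FPKM (KO). The groups did not overlap within a genotype, though KO astrocyte library 3, at 21.0 FPKM, stood above WT microglia library 1. The difference was 1.91 ± 0.42 (SE) with an adjusted p = 0.00301 in WT mice and 1.15 ± 0.39 (SE) with an adjusted p = 0.0268 in KO mice. In KO mice the call was lost on leaving out any of 5 libraries (each microglia library, and astrocyte library 1 or 4), with the adjusted p between 0.0571 and 0.0760.

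Monocarboxylate transporters, the doors for lactate and pyruvate, were divided by isoform. Slc16a1 (MCT1), which carries lactate in or out, read 16.5, 16.2 and 14.7 FPKM in WT astrocytes and 16.4, 11.99, 17.2 and 18.4 FPKM in KO astrocytes. Microglia had 4.75, 2.00 and 3.11 FPKM (WT) and 5.24, 4.65 and 2.85 FPKM (KO), below every astrocyte library, with a difference of -2.13 ± 0.28 (SE) with an adjusted p = 9.28e-05 in WT mice. Slc16a3 (MCT4), the low-affinity exporter of glycolytic cells, read 5.46, 7.29 and 3.42 FPKM in WT microglia and 6.28, 10.99 and 16.6 FPKM in KO microglia. In astrocytes it was listed at 0 in 3 of 7 libraries and read 0.0240, 0.106, 0.872 and 3.66 FPKM in the others. The highest of these, KO astrocyte library 3, lay just above the lowest microglia library, at 3.42 FPKM in WT, and the groups did not overlap within a genotype. The difference was 2.38 ± 0.58 (SE) with an adjusted p = 0.00515 in WT mice and 2.60 ± 0.53 (SE) with an adjusted p = 0.00169 in KO mice. Slc16a7 (MCT2), the high-affinity form best known from neurons, was also higher in microglia, at 11.2, 7.09 and 9.06 FPKM (WT) and 10.5, 10.8 and 12.7 FPKM (KO). Astrocytes read 1.29, 0.586 and 1.62 FPKM (WT) and 1.504, 0.970, 0.445 and 1.00 FPKM (KO), all lower, and the WT difference was 2.31 ± 0.29 (SE) with an adjusted p = 6.73e-05.

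Of the 8 glycogen genes, 5 were lower and 1 was higher in microglia in each genotype, and Gbe1 and Pgm1 were not called. These counts stand against 24.5% lower and 29.1% higher over all genes in WT mice, and 25.1% and 31.9% in KO mice. Gys1, glycogen synthase, read 15.2, 20.6 and 18.4 FPKM in WT astrocytes and 28.6, 12.3, 11.5 and 11.4 FPKM in KO astrocytes. In microglia it read 4.73, 4.13 and 3.70 FPKM (WT) and 5.63, 3.66 and 3.67 FPKM (KO), always below astrocytes, and the WT difference was -1.92 ± 0.35 (SE) with an adjusted p = 0.000876. Ugp2 makes the UDP-glucose that glycogen is built from. It read 41.9, 56.8 and 73.1 FPKM (WT) and 73.4, 68.2, 55.2 and 64.5 FPKM (KO) in astrocytes, and 9.27, 12.2 and 17.4 FPKM (WT) and 9.08, 15.8 and 9.98 FPKM (KO) in microglia. The populations did not overlap, with a WT difference of -1.96 ± 0.29 (SE) with an adjusted p = 0.000221. The gene listed as Pgm2 (ENSMUSG00000025791, which GENCODE calls Pgm1), a phosphoglucomutase, read 3.15, 1.26 and 3.54 FPKM (WT) and 2.76, 2.93 and 2.44 FPKM (KO) in microglia. Astrocytes, at 27.2 to 79.1 FPKM, were all higher, a WT difference of -4.13 ± 0.30 (SE) with an adjusted p = 1.01e-06. The gene listed as Pgm1 (ENSMUSG00000029171, GENCODE Pgm2) read 1.54 to 5.84 FPKM in astrocytes and 2.98 to 9.65 FPKM in microglia (adjusted p = 0.268 in WT mice). Gbe1, the branching enzyme, read 3.89 to 16.8 FPKM in astrocytes and 3.38 to 8.53 FPKM in microglia (adjusted p = 0.499 in WT mice).

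Glycogen is broken down by phosphorylases of muscle type (Pygm), brain type (Pygb) and liver type (Pygl). Pygm read 403, 336 and 173 FPKM in WT astrocytes and 505, 164, 420.1 and 319 FPKM in KO astrocytes. In microglia it read 4.92, 6.82 and 17.9 FPKM (WT) and 1.64, 6.57 and 5.81 FPKM (KO). Both day 9 astrocyte libraries were the lowest of their groups, and WT microglia library 3 was the highest of the microglia. The difference was -5.31 ± 0.50 (SE) with an adjusted p = 6.94e-06 in WT and -6.28 ± 0.46 (SE) with an adjusted p = 8.59e-07 in KO mice. Pygb read 150.1, 111 and 181 FPKM in WT astrocytes and 142, 146, 152 and 150.3 FPKM in KO astrocytes, against 14.2, 8.09 and 9.38 FPKM and 16.6, 13.4 and 14.4 FPKM in WT and KO microglia. No libraries overlapped, a WT difference of -3.62 ± 0.24 (SE) with an adjusted p = 4.49e-07. Pygl was the reverse, with 11.04, 4.88 and 4.87 FPKM in WT microglia and 9.23, 8.14 and 8.21 FPKM in KO microglia. Astrocytes had 0.671, 4.21 and 3.204 FPKM (WT) and 1.57, 3.32, 0.763 and 2.87 FPKM (KO), so that the WT groups were divided only by the step from 4.21 to 4.87 FPKM. Its difference was 1.38 ± 0.48 (SE) with an adjusted p = 0.0309 in WT and 1.85 ± 0.44 (SE) with an adjusted p = 0.00422 in KO mice. The WT call was lost without WT microglia library 1 (1.03, adjusted p = 0.103), WT astrocyte library 1 (0.83, adjusted p = 0.178) or WT astrocyte library 3 (1.34, adjusted p = 0.0601). It was also lost with quantile normalisation (0.90, adjusted p = 0.135), without the age covariate (1.17, adjusted p = 0.0521) and with no filter (adjusted p = 0.0570).

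RNA of other cells was present in both sorts. Astrocyte markers in WT microglia summed to 1.06% of their astrocyte level. Among genes higher in WT astrocytes, the microglial mean of Aldoc was 0.552% of the astrocyte mean, below that share, and Pfkm stood at 1.40%. Pdk4 stood at 0.879%, or at 1.41% without WT astrocyte library 1. Microglial markers in WT astrocytes summed to 0.445% of their microglial level. Slc2a5 stood at 0.0656%, or at 0.0246% without WT astrocyte library 3, and Hk2 at 1.30%, or at 0.317% without WT astrocyte library 1. Oligodendrocyte markers were high, 4619 to 8251 FPKM summed over 10 genes in astrocytes and 1083 to 2671 FPKM in microglia, with Mbp the most abundant. They were thus higher in the population with more of most of these genes, and the part of oligodendrocyte RNA in the differences was not tested.

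The share of each isozyme within its step does not depend on the scaling of a library. Shares were compared between all 6 microglia and all 7 astrocyte libraries with an exact two-sided permutation test, adjusted over 9 shares, whose smallest possible p is 0.000583. Slc2a1 made up 19.0% ± 2.49 (SD, n = 6) of the transporter RNA of Slc2a1, Slc2a3 and Slc2a5 in microglia and 99.2% ± 0.420 (SD, n = 7) in astrocytes. Hk1 made up 2.51% ± 1.15 (SD, n = 6) of hexokinase RNA in microglia and 87.0% ± 10.98 (SD, n = 7) in astrocytes. Aldoc made up 18.2% ± 6.62 (SD, n = 6) of aldolase RNA in microglia and 91.9% ± 1.16 (SD, n = 7) in astrocytes. These 3 shares did not overlap between populations, and neither did the 2 that follow. Pdk2 held 38.3% ± 10.3 (SD, n = 6) of the kinase RNA in microglia and 89.3% ± 4.84 (SD, n = 7) in astrocytes. Slc16a1 held 17.4% ± 5.83 (SD, n = 6) of the RNA of Slc16a1, Slc16a3 and Slc16a7 in microglia and 90.6% ± 4.73 (SD, n = 7) in astrocytes. For all 5, the exact permutation p was 0.000583 and the adjusted p 0.00105. Smaller differences were found for Ldhb, with 83.6% ± 3.39 (SD, n = 6) of lactate dehydrogenase RNA in microglia and 90.9% ± 1.45 (SD, n = 7) in astrocytes (exact permutation test, adjusted p = 0.00262). Eno2 held 6.30% ± 3.61 (SD, n = 6) of enolase RNA in microglia and 1.57% ± 1.69 (SD, n = 7) in astrocytes (exact permutation test, adjusted p = 0.0120), and without the day 9 libraries the adjusted p was 0.0511. Pfkp held 34.9% ± 22.8 (SD, n = 6) of phosphofructokinase RNA in microglia and 27.9% ± 7.09 (SD, n = 7) in astrocytes, which did not differ beyond the spread (exact permutation test, adjusted p = 0.477). For Pygb the shares of phosphorylase RNA were 46.0% ± 10.4 (SD, n = 6) and 32.8% ± 11.3 (SD, n = 7) (exact permutation test, adjusted p = 0.0649), and without the day 9 libraries the adjusted p was 0.00835. With the 3 WT libraries of each population alone no adjusted p can fall under 0.1.

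**Figure D3:**
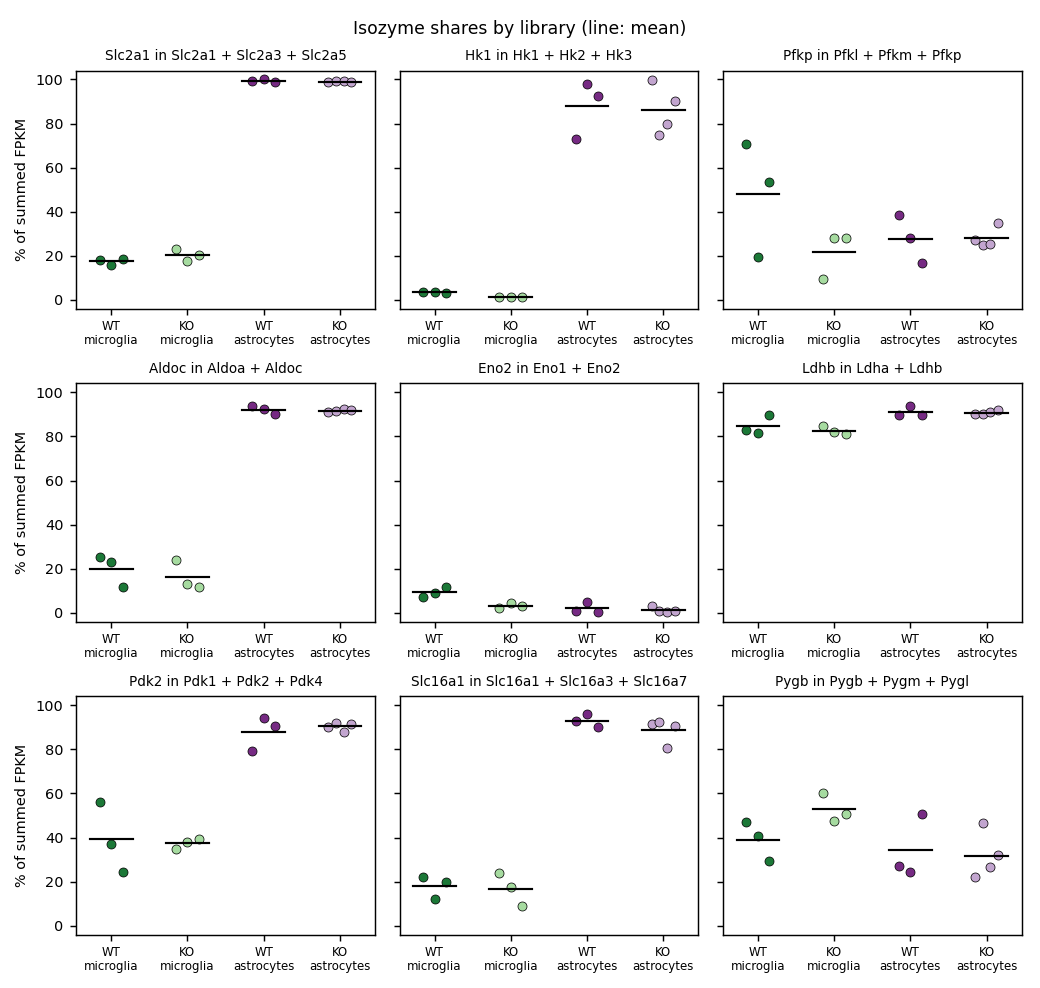
Share of 1 isozyme in the summed FPKM of its family (vertical axis, percent) in each library, for 9 families and the 4 groups on the horizontal axis; points are libraries and lines are group means. For Slc2a1, Hk1, Aldoc, Pdk2 and Slc16a1 the 6 microglia libraries all lie below the 7 astrocyte libraries.

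Promoter sequences of the 2 genes in each direction with the largest WT difference in log2(FPKM + 1), and of the gene with the most copies of a hypoxia motif among those printable, are shown so that the reader can see what stands before these genes. Hypoxia-inducible factor, a known regulator of glycolytic genes, binds a core with the letters ACGTG or GCGTG. RefSeq windows of 300 bases (250 before to 50 after a gene start, GRCm38.p6) were found for 37 of the 39 genes. On either strand, ACGTG stood in 22 of them (59.5%) and GCGTG in 18 (48.65%), and at least 1 of the motifs in 29 (78.4%). Over the windows of all 27025 genes the shares were 19.6%, 32.6% and 43.9%, without matching for base composition. The stretches below end before the first annotated transcript base, run 5′ to 3′ on the strand of the gene and have either motif, read on either strand, in capitals. They cover chr4:150119094-150119282 (plus strand) for Slc2a5, chr6:82774455-82774704 (minus strand) for Hk2, chr11:78322823-78322967 (plus strand) for Aldoc, chr15:98092339-98092588 (plus strand) for Pfkm and chr11:21371268-21371517 (minus strand) for Ugp2.
Slc2a5: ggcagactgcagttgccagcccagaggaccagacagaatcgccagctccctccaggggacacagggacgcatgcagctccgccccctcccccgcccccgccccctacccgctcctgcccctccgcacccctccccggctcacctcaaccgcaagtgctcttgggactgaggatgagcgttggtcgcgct
Hk2: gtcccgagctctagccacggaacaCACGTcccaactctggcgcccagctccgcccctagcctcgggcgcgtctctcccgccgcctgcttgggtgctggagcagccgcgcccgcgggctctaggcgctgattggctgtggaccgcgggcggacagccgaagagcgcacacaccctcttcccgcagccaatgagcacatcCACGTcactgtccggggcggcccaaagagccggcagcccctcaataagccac
Aldoc: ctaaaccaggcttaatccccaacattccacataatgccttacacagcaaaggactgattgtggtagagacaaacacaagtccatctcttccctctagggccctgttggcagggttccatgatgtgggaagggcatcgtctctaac
Pfkm: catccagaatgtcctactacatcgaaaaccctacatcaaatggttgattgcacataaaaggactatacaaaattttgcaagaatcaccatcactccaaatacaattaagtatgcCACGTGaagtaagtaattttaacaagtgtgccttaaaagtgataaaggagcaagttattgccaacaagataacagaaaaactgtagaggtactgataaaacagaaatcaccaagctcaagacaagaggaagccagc
Ugp2: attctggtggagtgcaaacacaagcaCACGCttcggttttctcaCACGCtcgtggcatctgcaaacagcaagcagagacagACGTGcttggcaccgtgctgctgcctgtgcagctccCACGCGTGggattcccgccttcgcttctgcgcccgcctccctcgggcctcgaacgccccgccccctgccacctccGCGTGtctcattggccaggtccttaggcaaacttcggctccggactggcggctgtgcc
Hk2, high in microglia, has 2 matches, and Slc2a5, also high in microglia, has none in its window. Aldoc has 1 ACGTG and 2 GCGTG in its window, all after the stretch shown. The single run CACGTG of Pfkm reads as ACGTG on each strand, the window holds 1 more match after the stretch, and the gene has 4 RefSeq starts. Ugp2, higher in astrocytes, has 6 matches, of which 5 are GCGTG. Motifs of this kind stood before genes of both directions, and a match is only a match of letters.

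Other genes of the pathway, 101 on a list written for this comparison, gave the surroundings. Of the 80 that passed the filter, 15 were higher and 44 were lower in WT microglia, and 15 and 42 in KO mice. The counts here and for the lists that follow stand against 29.1% higher and 24.5% lower over all genes in WT mice, and 31.9% and 25.1% in KO mice. The pyruvate dehydrogenase complex and pyruvate carrier list had 8 of 10 genes lower and 1 higher in WT microglia. Pdhb, the partner subunit of Pdha1, had 92.1 ± 12.7 FPKM (SD, n = 3) in WT astrocytes and 23.3 ± 2.34 FPKM (SD, n = 3) in WT microglia, a difference of -2.07 ± 0.14 (SE) with an adjusted p = 7.83e-07. Dld, Mpc2 (a subunit of the mitochondrial pyruvate carrier) and Dlat had differences of -2.23 ± 0.17 (SE), -2.04 ± 0.22 (SE) and -2.62 ± 0.30 (SE). Of 21 tested genes that handle glycogen, 15 were lower and 2 higher in WT microglia. Ppp1r3c, a scaffold that brings a phosphatase to glycogen, had 72.7 ± 23.4 FPKM (SD, n = 3) in WT astrocytes and 0.841 ± 0.888 FPKM (SD, n = 3) in WT microglia, a difference of -5.36 ± 0.37 (SE) with an adjusted p = 6.70e-07. The phosphorylase kinase subunits Phka1, Phkb and Phkg1 differed by -2.96 ± 0.26 (SE), -2.25 ± 0.21 (SE) and -2.97 ± 0.31 (SE).

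Of 20 tested regulators, 5 were higher and 10 lower in WT microglia. Epas1 (HIF-2 alpha), a hypoxia-inducible factor, had 209.7 ± 52.3 FPKM (SD, n = 3) in WT astrocytes and 3.72 ± 0.962 FPKM (SD, n = 3) in WT microglia, a difference of -5.65 ± 0.28 (SE) with an adjusted p = 6.13e-08. Mlxipl (ChREBP), a factor that senses sugar phosphates, had 167 ± 24.9 FPKM (SD, n = 3) in WT microglia and 0.508 ± 0.666 FPKM (SD, n = 3) in WT astrocytes, a difference of 6.55 ± 0.47 (SE) with an adjusted p = 9.69e-07. Txnip, a glucose-induced brake on glucose uptake, had 964 ± 176 FPKM (SD, n = 3) in WT microglia and 8.27 ± 4.78 FPKM (SD, n = 3) in WT astrocytes, a difference of 7.06 ± 0.49 (SE) with an adjusted p = 7.83e-07. Myc, a factor that drives glycolytic genes, was also higher in WT microglia, by 3.33 ± 0.29 (SE). In the pentose phosphate pathway, 3 of 8 genes were higher and 2 lower, shares near those of all genes, with H6pd (2.41 ± 0.38 (SE)) and Rpia (2.40 ± 0.54 (SE)) higher and Rpe (-1.29 ± 0.20 (SE)) and Tkt (-1.65 ± 0.39 (SE)) lower. Among further isozymes and sugar transporters 13 were tested, 2 higher and 5 lower in WT microglia. Slc2a4, the insulin-regulated transporter, and Bpgm, which makes 2,3-bisphosphoglycerate, were lower, with differences of -4.30 ± 0.25 (SE) and -3.64 ± 0.35 (SE), as was Slc2a12 (-1.35 ± 0.37 (SE)), while Slc2a9, a urate transporter, was higher (2.45 ± 0.39 (SE)). Among Slc16a relatives and their chaperones, 2 of 8 were higher and 4 lower, with Slc16a6 (3.47 ± 0.40 (SE)) and Slc16a10 (2.89 ± 0.29 (SE)) higher and Slc16a9 (-3.17 ± 0.32 (SE)) and Slc16a4 (-2.14 ± 0.40 (SE)) lower.

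Loss of IL-33 was then compared within each population. In microglia none of the 37 genes that passed the filter was called (limma), against 13 of 15889 genes, or 0.0818%, and 2 had an unadjusted p under 0.05, against 7.96% of all genes. Groups of 3 that did not overlap were found for 4 of the 37 genes, against 15.9% of all genes. Of these, 2 were on the high side in KO (8.41% of all genes) and 2 on the low side (7.48%). Eno2 read 1.30, 2.84 and 1.86 FPKM in KO and 6.72, 5.44 and 5.43 FPKM in WT microglia. Every KO library was below every WT library, and the difference of -1.22 ± 0.26 (SE) with an adjusted p = 0.470 did not pass (unadjusted p = 0.00372). Hk1 read 3.78, 3.34 and 3.56 FPKM in KO and 8.59, 10.1 and 5.15 FPKM in WT microglia, again with no overlap, and its difference was -0.93 ± 0.27 (SE) with an adjusted p = 0.549. Summed neuron markers did not overlap either, at 5.29 to 6.26 FPKM in KO and 10.2 to 58.3 FPKM in WT microglia, and the part of neuronal RNA in Eno2 and Hk1 was not tested. Slc16a3 read 6.28, 10.99 and 16.6 FPKM in KO and 5.46, 7.29 and 3.42 FPKM in WT microglia, groups that overlapped, with a difference of 0.90 ± 0.40 (SE) with an adjusted p = 0.602. On the high side in KO microglia without overlap stood Slc2a1 (0.23 ± 0.15 (SE) with an adjusted p = 0.710) and Pgam1 (0.60 ± 0.27 (SE) with an adjusted p = 0.606). The median difference of the 37 genes was 0.16, against 0.02 for all genes. Pdk4 and Pcx were under the filter in microglia. Xist, which marks female libraries, was above 10 FPKM in 2 of 3 WT and in 0 of 3 KO microglia libraries, so that sex was uneven between them. With Xist as a covariate the genotype term compares the KO libraries with WT library 3 alone, which like them was not above 10 FPKM. That term holds the Xist state fixed but cannot separate genotype from what is particular to 1 WT library. Neutrophil markers summed to 55.1 to 113 FPKM in KO and 131 to 261 FPKM in WT microglia, and Hk3 read 23.8, 29.2 and 31.4 FPKM and 18.4, 30.7 and 26.4 FPKM in the same libraries, with overlap.

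In the authors' deposited table of changes in microglia, which lists 483 genes, 1 of the 39 stands, Pygl. How many genes the authors tested is not known here, so no share over all genes can be set beside that count. On FPKM, limma called far fewer genes in microglia, 13 of 15889. The authors' deposited table puts its mean normalised count at 436 (WT) and 656 (KO), with a log2 ratio of WT over KO of -0.60 and an adjusted p of 0.0347. In FPKM, KO microglia read 9.23, 8.14 and 8.21 and WT microglia 11.04, 4.88 and 4.87, where WT library 1 stood above all KO libraries and the other WT libraries below them. Its difference was 0.35 ± 0.32 (SE) with an adjusted p = 0.746 by limma.

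**Figure D4:**
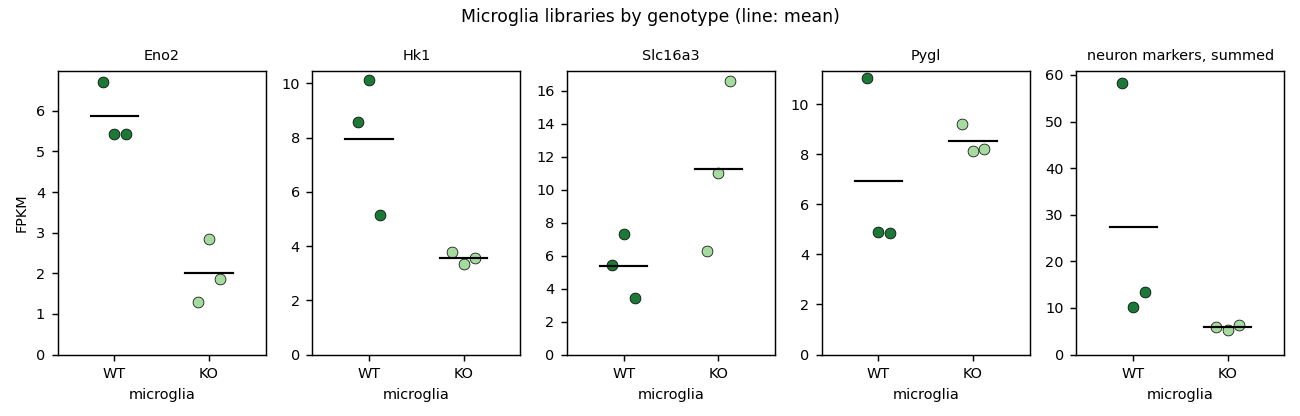
FPKM of Eno2, Hk1, Slc16a3 and Pygl, and the summed FPKM of 9 neuron markers, in each microglia library by genotype (points are libraries, lines are means, each panel has its own vertical axis from 0). Eno2, Hk1 and the neuron markers are lower in all 3 KO libraries, Slc16a3 and Pygl overlap.

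In astrocytes none of the 35 genes that passed the filter was called (limma, with age as a covariate), against 3 of 13397 genes, or 0.0224%. At an unadjusted p under 0.05 there was 1 gene, against 4.19% of all genes. That gene was Pdha1, at 61.2, 40.6, 59.3 and 58.3 FPKM in KO and 72.3, 86.1 and 61.4 FPKM in WT astrocytes. It was the only gene of the 35 whose groups did not overlap, against 4.68% of all genes in either direction and 2.36% in that direction, with a difference of -0.45 ± 0.15 (SE) with an adjusted p = 0.921. Pdha1 lies on the X chromosome, and Xist was above 10 FPKM in WT astrocyte library 2 and KO astrocyte libraries 3 and 4. With Xist as a covariate none of the genes was called in astrocytes. Pgm2 read 47.9, 27.2, 42.1 and 36.5 FPKM in KO and 50.1, 79.1 and 31.6 FPKM in WT astrocytes, a difference of -0.47 ± 0.22 (SE) with an adjusted p = 0.921. For Pdk4 the values were 28.7, 16.9, 25.3 and 19.3 FPKM and 73.6, 23.5 and 28.5 FPKM, where WT library 1 stood far above the rest, and the difference was -0.76 ± 0.39 (SE) with an adjusted p = 0.921. Both genes overlapped between genotypes. The abundant astrocyte genes were close, with Aldoc at 2864 ± 449 (SD, n = 4) FPKM in KO and 3005 ± 519.6 (SD, n = 3) FPKM in WT astrocytes (-0.11 ± 0.12 (SE)). Gapdh stood at 1927 ± 172 (SD, n = 4) FPKM and 1702 ± 60.3 (SD, n = 3) FPKM (0.18 ± 0.13 (SE)). Ldhb stood at 1012 ± 128 (SD, n = 4) FPKM and 1039.7 ± 77.1 (SD, n = 3) FPKM (-0.07 ± 0.13 (SE)). The median difference of the 35 genes was 0.00, as for all genes. Slc2a3, Slc2a5, Hk3 and Slc16a3 were under the filter in astrocytes, and the authors' deposited table for astrocytes, with 10 genes, holds none of the 39.

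**Figure D5:**
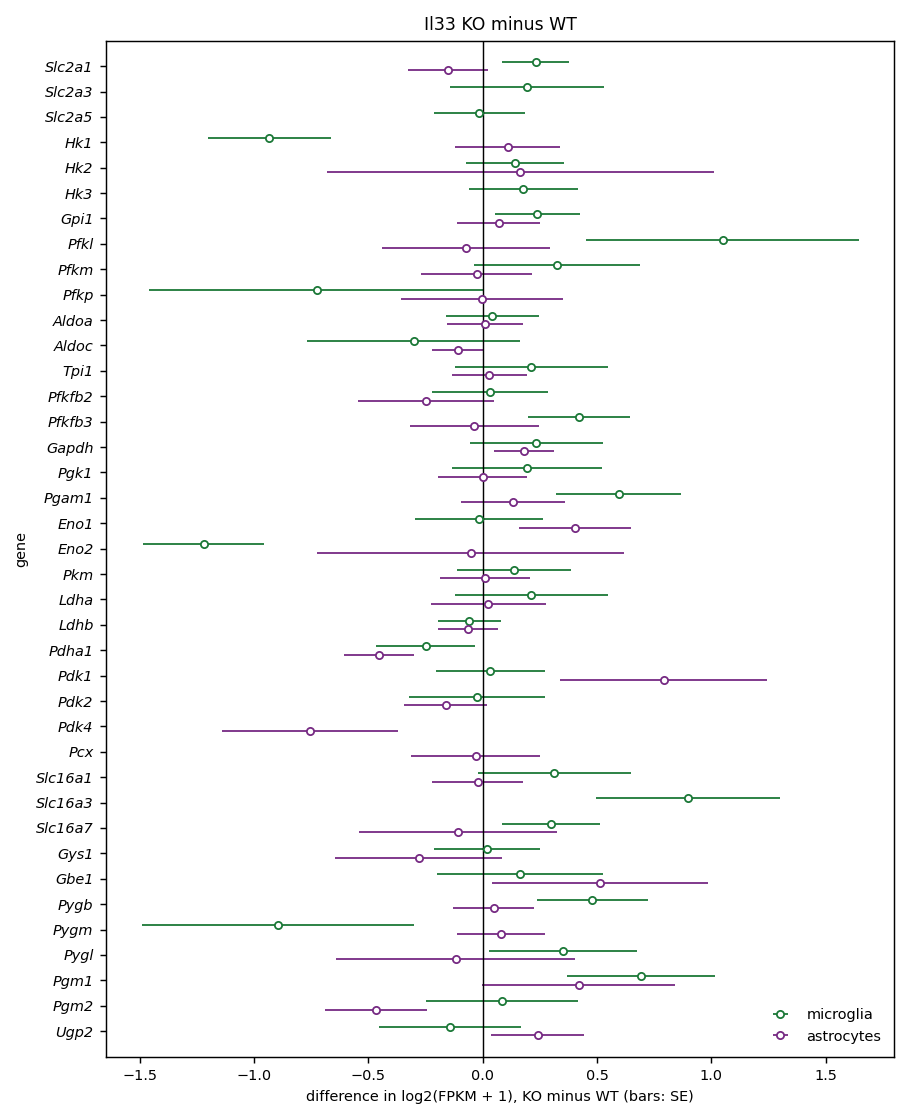
Difference between KO and WT mice for each gene (vertical axis, grouped by role) in log2(FPKM + 1), positive where KO was higher, in microglia (green) and astrocytes (purple), with SE as bars; genes under the filter have no point. All points are open because none was called, and Eno2 in microglia, at -1.22, lies farthest to the left.

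Whether loss of IL-33 acted differently in the populations was tested with an interaction term. None of the 39 genes was called (limma), against 23 of 16258, or 0.141%. At an unadjusted p under 0.05 there was 1 gene, against 6.62% of all genes. That was Hk1, whose KO minus WT difference was lower in microglia than in astrocytes by a term of -1.04 ± 0.34 (SE) with an adjusted p = 0.632. Pdk4 (0.96 ± 0.49 (SE), adjusted p = 0.783) and Slc2a1 (0.38 ± 0.23 (SE), adjusted p = 0.804) came next. None of the isozyme shares differed between genotypes after adjustment over 18 exact permutation tests (lowest adjusted p = 0.6). With 3 libraries in each group no share in microglia could go below p = 0.1 in the exact test. The Hk1 share of hexokinase RNA was 1.48, 1.51 and 1.52 percent in KO and 3.82, 3.79 and 2.97 percent in WT microglia. The Eno2 share of enolase RNA was 2.40, 4.66 and 2.91 percent in KO and 7.31, 8.93 and 11.6 percent in WT microglia. For Pygb in phosphorylase RNA the shares were 60.4, 47.6 and 50.7 percent and 47.1, 40.9 and 29.1 percent. Of the 9 shares in microglia, these 3 did not overlap and reached that smallest p in the exact permutation test. Chance alone separates groups of 3 in this way at a rate of 0.1. The part of neuronal RNA in the Hk1 and Eno2 shares was not tested. None of the 101 other pathway genes was called in either population or in the interaction, where 73 were tested in microglia and 80 in astrocytes and in the interaction.

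Age split the astrocytes in the same fit, with 1 library of each genotype at day 9. None of the 35 genes was called (limma), against 13 of 13397, or 0.0970%, and 8 had an unadjusted p under 0.05, against 8.61% of all genes. All 8 were on the low side at day 9, against 4.9% of all genes on that side. Pygm read 173 and 164 FPKM at day 9 and 403, 336, 505, 420.1 and 319 FPKM at day 12 (-1.20 ± 0.21 (SE) with an adjusted p = 0.166). Aldoc read 2405 and 2194 FPKM at day 9 and 3312, 3298, 3098, 3129 and 3036 FPKM at day 12 (-0.48 ± 0.13 (SE) with an adjusted p = 0.344). Pfkp read 20.9 and 22.8 FPKM at day 9 and 92.8, 34.5, 52.0, 44.2 and 71.0 FPKM at day 12 (-1.31 ± 0.39 (SE) with an adjusted p = 0.398). The other 5 were Hk1, Pfkm, Pfkfb2, Pdha1 and Pgm2. The median difference of the 35 genes was -0.24 on the log2 scale, against -0.02 for all genes. With 2 libraries at day 9, age and the single animals or pools behind them cannot be told apart.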

How the data were processed

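Libraries were prepared from the RNA of sorted cells by the NuGEN RNA-Seq V2 method, as the labels' protocols state. Per the submitters' processing notes, reads on GRCm38 were handled with Bowtie2 2.2.3 and TopHat2 2.0.11, with Cuffnorm, Cufflinks, HTSeq 0.6.1p1 and DESeq2 also named. The authors deposited FPKM for 39171 genes. How these were scaled between libraries, and whether strand was used, is not given in the sources used here. Exons shared with other genes (19.5% of exonic bases in Pfkfb2, 16.2% in Pdha1, 15.3% in Pkm, 13.6% in Pgm2, 11.5% in Gpi1, 10.8% in Pfkm) make those levels less certain. The authors also deposited tables of genes changed between genotypes, with mean normalised counts (signal), log2 ratios, scores and p-values, per the file headers. No count model was applied to FPKM.

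In R 4.3.3, limma 3.58.1 with a mean-variance trend gave two-sided tests of log2(FPKM + 1) for genes with a mean of at least 1 FPKM over the fitted libraries. Cell types and the interaction were fitted over 13 libraries with age as a covariate, microglia alone, and astrocytes alone with age. The limma fits were tested on simulated data. The series calls the libraries biological replicates without naming animals, so p-values measure the spread between libraries. The members and lists were chosen with earlier results of these data known. All 39 genes are named, with values per library for called genes and for the 3 smallest p of a comparison without calls, and up to 4 genes for each list of other pathway genes. RefSeq promoter windows were chosen by the start with the most GENCODE transcript starts within 100 bases.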

Additional observations from a re-analysis of the deposited data

Results flagged for a closer look

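Outlying libraries were looked for only in KO astrocytes, the group with 4 libraries, and the groups of 3 were not tested. Among 39 gene levels and 9 isozyme shares, 6 had 1 KO astrocyte library standing apart from the other 3 by Dixon's test, which chance alone does in about 1 of 20 groups. The ratio of the gap to the whole range is given for each. KO library 2, the day 9 library, was low for Pfkm (60.9 FPKM against 124 to 127, ratio 0.954), Aldoc (2194 FPKM against 3036 to 3129, ratio 0.900) and Pdha1 (40.6 FPKM against 58.3 to 61.2, ratio 0.860). KO library 1 was high for Gys1 (28.6 FPKM against 11.4 to 12.3, ratio 0.946) and for the Eno2 share of enolase RNA (3.05% against 0.587% to 0.711%, ratio 0.950). It also had the highest sum of neuron markers, 371 FPKM. KO library 3 was low for the Slc16a1 share (80.8% against 90.8% to 92.5%, ratio 0.851). It alone listed Hk3 above 0, at 0.0196 FPKM, where the ratio is 1 for any value because the other 3 libraries are at 0, so that it is not counted among the 6.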

How the results depend on the processing

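Counts of called genes were recomputed under 13 to 21 alternatives for each comparison, namely a pseudocount of 0.1, no filter or a filter of 5 FPKM, median-ratio and quantile scaling, single libraries left out, a block for the replicate number and, where they applied, fits without age, of day 12, of WT or of all libraries, and with Xist as a covariate. Between WT populations 6 to 8 genes were higher in microglia and 22 to 26 lower. Between KO populations 6 to 8 were higher and 23 to 27 lower. In the genotype, interaction and age comparisons the count was 0 under every alternative run. Of the 34 genes called between WT populations, 28 kept their call wherever they were tested, and Hk1, Pfkp, Pfkfb2, Ldha, Pdk1 and Pygl lost it in at least 1 alternative. Between KO populations 30 of 34 kept it, and Eno2, Ldha, Pdk1 and Gys1 did not. No called gene changed direction. Within microglia and within astrocytes, deviations of same-numbered WT and KO libraries had correlations from -0.0791 to 0.0277. Libraries of unlike number were not compared, so these values do not settle whether WT and KO litters were paired. In astrocytes the block joins WT library 3 and KO library 2, both from day 9, each to a day 12 library. Pairing between the populations was not checked, and the block was set within each population. With the replicate block, 7 genes were higher and 22 lower in WT microglia than in WT astrocytes, 7 higher and 23 lower in KO mice, and 0 were called in the other comparisons. With Xist as a covariate 46 genes of the whole table were higher and 232 lower in KO microglia, in place of 9 and 4, and none of them was one of the 39. Depth is unknown and limits genes near 0 most. The planned comparison of isozyme proteins was not run.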
